A study of Mus musculus with 4 samples.

Results

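The genes described here were the classical cadherins and the non-clustered protocadherins of the mouse, taken as every symbol of the deposited gene list made of Cdh or Pcdh and a number, with or without a closing x. That rule found 35 of 32285 genes. They were 5 type I classical cadherins, 13 type II classical cadherins, 5 other cadherins, 4 delta-1 protocadherins, 5 delta-2 protocadherins and 3 other non-clustered protocadherins. The symbols therefore also take in genes that are neither classical nor delta members, such as Cdh13, which is held in the membrane by a lipid anchor, and Pcdh15, known from the tip links of hair cells. The clustered protocadherins of the alpha, beta and gamma arrays were not included.

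Classical cadherins bind their like on a neighbouring cell in the presence of calcium, and their tails hold catenins, which join them to actin. Type I members such as N-cadherin bind strongly, whereas type II members bind each other in graded combinations and are known for sorting neurons into nuclei and columns. Delta protocadherins adhere more weakly, and several of them recruit the WAVE complex, which starts actin branching, to sites of cell contact. In the developing telencephalon both families are known for roles in the migration, sorting and axon growth of neurons.

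The study asked what the transcription factor St18 does in neurons born in the medial ganglionic eminence (MGE), the ventral telencephalic zone that gives rise to cortical interneurons and to pallidal neurons. The data were single-cell RNA-seq libraries of MGE dissected at E14.5 from mice of a mixed C57/BL6 and ICR background, 2 libraries of St18(-/-) embryos (null) and 2 of wildtype embryos (WT). The embryos came from heterozygous parents and were pooled by genotype, so each library is a pool. The null allele was made with a germline Cre and is lost in the whole animal, not in the MGE alone.

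The 4 libraries held 70991150 to 92984713 UMIs, where a UMI is a tag that counts 1 captured RNA molecule. Cells were barcodes with at least 3000 UMIs and a mitochondrial share of at most 10%, which left 3878 to 6631 barcodes a library, with median depths of 6186 to 9352 UMIs. After the likely doublets were left out, 18267 cells remained, of which 10108 were neurons and 7874 progenitors. Any pair of libraries shared 4 to 11 cell barcodes. St18 itself had a level of 24.8 CPM (the UMIs of a gene as a share of all UMIs of those cells, scaled to the same total in every sample) in the neurons of null replicate 1, 76.2 CPM in null replicate 2, 44.4 CPM in WT replicate 1 and 58.8 CPM in WT replicate 2, null replicate 2 being the highest of the 4. The allele loses internal exons and shifts the reading frame, and a transcript can remain. The paper found significantly less St18 transcript in null neurons and proposes that part of it is degraded. Here null replicate 1 lay below both WT libraries, but null replicate 2 lay above both. Progenitors had the same order. Null replicate 2 led with 47.7 CPM, before WT replicate 2 (40.1), WT replicate 1 (32.0) and null replicate 1 (15.7). The cause was not tested, and these values do not check the labels. Xist, the transcript of the inactive X chromosome, stood at 598 and 1470 CPM in the null neurons and under 1 CPM in the WT neurons, so the null pools held female cells and the WT pools almost none, and genotype and sex make-up differ together. The pallial excitatory marker genes summed to 55.1 CPM in the neurons of null replicate 2 and to 1.92 to 9.08 CPM in those of the other libraries. The 4 MGE lineage markers (Nkx2-1, Lhx6, Lhx8 and Sox6) summed to 1172 to 1367 CPM in the neurons. In neurons the null libraries had 373 and 448 CPM of the CGE neuron list, where WT libraries had 265 and 300.3 CPM, and 2049 and 2353 CPM of the LGE striatal-type list, where WT libraries had 1853 and 1548 CPM. Both lists were also higher in null progenitors without overlap. So was, among others, the MGE lineage list (823 and 916 CPM against 721 and 822 CPM). In progenitors 48.2% of all tested genes had a CPM above both WT libraries in both null libraries. In neurons the cortical interneuron precursor list was also higher in null (1734 and 2239 CPM against 1550 and 1345 CPM). The ventral telencephalic neuron list was lower there (465 and 428 CPM against 496 and 617 CPM). The part of these lists in the genotype values below was not tested. The endothelial and microglial lists summed to at most 10.4 and 3.13 CPM in neurons or progenitors. The erythroid list summed to 491 and 1218 CPM in the progenitors of null replicate 1 and WT replicate 2, to 64.0 and 77.3 CPM in those of the other 2 libraries, and to 93.7 to 124 CPM in neurons.

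Of the 35 genes, 33 had at least 1 UMI in neurons or progenitors, and Cdh17 and Cdh19 had none. In 15 of them the mean over the libraries reached 10 CPM in neurons or in progenitors, and these are described one by one: Cdh2, Cdh4, Cdh8, Cdh11, Cdh24, Cdh13, Pcdh1, Pcdh7, Pcdh9, Pcdh11x, Pcdh8, Pcdh10, Pcdh17, Pcdh18 and Pcdh19. The other 20 stayed at or below 12.4 CPM in every library. Free RNA that gets into every droplet sets a floor under such values. In the 153 erythroid cells, which should lack these adhesion genes, the 15 genes stood at 0 to 7.32 CPM and at most 7.84% of cells had a UMI of any 1 of them, at median depths of 9932 to 13003 UMIs. In neurons the share of cells with a UMI ran from 1.63% for Pcdh18 to 71.8% for Cdh2, at median depths of 5495 to 8160 UMIs.

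Cdh8 and Pcdh8 carry much of what follows, since both were highest in the same neurons, and the bases before their transcription starts are shown for that reason. The 250 bases upstream of each start, from RefSeq promoters on GRCm38.p6, are written 5′ to 3′ on the strand of the gene. Cdh8 lies on chromosome 8 at 99024471 to 99416471 and Pcdh8 on chromosome 14 at 79766775 to 79771312, both on the minus strand of GRCm38 in the GENCODE M21 annotation. The windows are chr8:99416472-99416721 for Cdh8 and chr14:79771313-79771562 for Pcdh8.
Cdh8: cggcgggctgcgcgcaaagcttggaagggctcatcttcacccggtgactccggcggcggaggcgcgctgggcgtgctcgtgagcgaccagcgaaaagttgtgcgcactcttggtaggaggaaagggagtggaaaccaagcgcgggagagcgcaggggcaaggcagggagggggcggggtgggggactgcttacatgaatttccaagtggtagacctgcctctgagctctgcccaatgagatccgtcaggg
Pcdh8: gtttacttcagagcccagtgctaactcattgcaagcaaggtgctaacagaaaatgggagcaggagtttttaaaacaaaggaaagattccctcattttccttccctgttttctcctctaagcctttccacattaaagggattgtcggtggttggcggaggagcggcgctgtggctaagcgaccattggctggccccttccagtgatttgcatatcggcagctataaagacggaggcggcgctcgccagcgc
Their make-up differed, with a GC content of 64.4% for Cdh8 and 51.2% for Pcdh8, where the median of all 32851 promoters was 52.4%. Promoter windows were found for 22 of the 35 genes, 25 windows in all, and were searched on both strands for AAAGTTT, the core bound by the Myt1 family to which St18 belongs, and for TAATTA, a homeodomain core. AAAGTTT was in none of the 25 windows and in 4.20% of all windows, and TAATTA was in 1 of the 25, that of Cdh7, and in 4.84% of all windows. No capitals are set in the 2 sequences because neither motif occurred in them, which says only that these letters are not in these windows.

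The first comparison asked how the adhesion genes differed between progenitors and neurons. The counts of each class were summed per library and compared in edgeR by its quasi-likelihood test, the library being a block, with Benjamini-Hochberg adjustment over all genes. Of the 35 genes, 22 passed the filter on low counts, and 20 of these passed an adjusted p of 0.05, 13 of them higher in neurons and 7 higher in progenitors. Among all 13767 genes tested 80.4% passed, 40.7% higher in neurons and 39.7% higher in progenitors, so passing was the rule among tested genes. The median log2 fold change of the 22 genes was 0.47 toward neurons and that of all genes 0.02. In what follows 4 values are in the order null replicate 1, null replicate 2, WT replicate 1 and WT replicate 2, and a fold change is the log2 of neurons over progenitors with its standard error.

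The type I members Cdh2 and Cdh4 were both higher in neurons. Cdh2, N-cadherin, the main adhesion molecule of the ventricular surface and of young neurons, stood at 229, 288, 223 and 233 CPM in neurons and at 191, 251, 185 and 187 CPM in progenitors. The difference was small (log2 0.20, SE 0.03, adjusted p = 2.6e-05 with edgeR's quasi-likelihood test), with neurons higher in all 4 libraries although the ranges of the classes overlapped. Cdh4, R-cadherin, stood at 44.4, 46.3, 30.6 and 39.3 CPM in neurons and at 18.8, 21.8, 13.5 and 13.6 CPM in progenitors. These ranges did not overlap (log2 1.19, SE 0.06, adjusted p = 3.8e-11 with edgeR). The other type I members, Cdh1, Cdh3 and Cdh15, were at or below 1.27 CPM in every library of both classes.

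The type II members moved in both directions. Cdh8, known from subsets of striatal and thalamic neurons, stood at 28.0, 29.5, 27.7 and 47.8 CPM in neurons and at 20.4, 19.1, 14.4 and 10.3 CPM in progenitors (log2 0.90, SE 0.17, adjusted p = 0.00013 with edgeR). WT replicate 2 was the highest library in neurons and the lowest in progenitors, and the classes did not overlap. Cdh24 was higher in progenitors, at 16.8, 21.2, 14.4 and 14.53 CPM against 13.2, 17.0, 11.01 and 11.3 CPM in neurons (log2 -0.40, SE 0.06, adjusted p = 3.9e-05 with edgeR), in all 4 libraries, though the ranges overlapped. Cdh11, which is also known as a cadherin of mesenchymal cells, stood at 15.4, 20.8, 19.7 and 20.9 CPM in neurons and at 16.9, 25.4, 20.1 and 20.3 CPM in progenitors. Its values overlapped and its small difference (log2 -0.17, SE 0.06, adjusted p = 0.0142 with edgeR) lost the call without null replicate 2 (log2 -0.12, adjusted p = 0.121), with DESeq2 and in 3 further alternatives. Among the rarer type II members Cdh6 (log2 -1.66, SE 0.19) and Cdh7 (log2 -1.13, SE 0.10) were higher in progenitors. Cdh10 (log2 0.87, SE 0.12) and Cdh22 (log2 0.44, SE 0.11) were higher in neurons, and Cdh20 did not pass (log2 0.28, adjusted p = 0.287 with edgeR). Cdh6 stood at 4.32 to 8.06 CPM in progenitors and 1.38 to 2.58 CPM in neurons.

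Among the cadherins of other kinds, Cdh13 was the 1 member with a measurable level. It stood at 9.81, 8.82, 9.45 and 15.4 CPM in neurons and at 3.70, 4.39, 3.57 and 4.32 CPM in progenitors (log2 1.34, SE 0.11, adjusted p = 2.1e-08 with edgeR). Every neuron value lay above every progenitor value. Cdh16, Cdh17, Cdh23 and Cdh26 had 0 to 7 UMIs each over both classes.

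Of the delta-1 protocadherins, 3 of 4 were higher in neurons. Pcdh9 stood at 31.8, 40.1, 31.0 and 29.3 CPM in neurons and at 13.2, 17.2, 9.79 and 10.96 CPM in progenitors (log2 1.31, SE 0.06, adjusted p = 2.4e-11 with edgeR). Pcdh7 stood at 20.6, 34.3, 15.1 and 21.8 CPM in neurons and at 9.04, 11.2, 7.61 and 8.57 CPM in progenitors (log2 1.27, SE 0.09, adjusted p = 4.6e-09 with edgeR). Pcdh1 stood at 12.8, 16.9, 10.8 and 12.6 CPM in neurons and at 5.80, 6.57, 5.08 and 6.19 CPM in progenitors (log2 1.13, SE 0.09, adjusted p = 1.6e-08 with edgeR). In each of these 3 genes the classes did not overlap. Pcdh11x, which lies on the X chromosome, went the other way, at 10.1, 11.9, 7.39 and 10.4 CPM in neurons and 13.2, 13.7, 9.79 and 10.4 CPM in progenitors (log2 -0.31, SE 0.08, adjusted p = 0.00327 with edgeR). Its classes overlapped.

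The delta-2 protocadherins held the widest differences of the 15 genes. Pcdh8, a protocadherin known to be induced by synaptic activity and to draw N-cadherin into the cell, stood at 31.1, 30.6, 30.5 and 39.3 CPM in neurons and at 5.30, 7.44, 5.02 and 4.25 CPM in progenitors (log2 2.48, SE 0.10, adjusted p = 4.2e-12 with edgeR). Pcdh18 stood at 2.43, 3.56, 2.06 and 3.37 CPM in neurons and at 14.8, 17.4, 14.7 and 13.9 CPM in progenitors (log2 -2.48, SE 0.11, adjusted p = 1.2e-11 with edgeR). The 2 genes thus differed by about the same size in opposite directions, and neither gene's classes overlapped. Pcdh17, known from the sorting of basal ganglia axons and synapses, stood at 95.5, 117, 79.9 and 97.5 CPM in neurons and at 53.7, 78.7, 46.6 and 61.3 CPM in progenitors (log2 0.66, SE 0.04, adjusted p = 8.1e-10 with edgeR). Pcdh19, the X-linked gene of a female-limited epilepsy, stood at 34.8, 38.6, 30.1 and 32.9 CPM in neurons and at 24.8, 27.5, 20 and 19.3 CPM in progenitors (log2 0.51, SE 0.05, adjusted p = 2.9e-07 with edgeR). The classes did not overlap in either gene. Pcdh10, which is known to be needed for the growth of striatal axons, was higher in progenitors at 61.8, 74.6, 52.1 and 54.6 CPM against 47.1, 54.2, 42.6 and 49.7 CPM in neurons (log2 -0.39, SE 0.05, adjusted p = 9.8e-07 with edgeR), with overlapping ranges but the same direction in all 4 libraries. Of the remaining protocadherins, Pcdh15 was at 2.56 to 5.63 CPM in neurons and 0.121 to 0.869 CPM in progenitors (log2 3.39, SE 0.23), and Pcdh20 did not pass (log2 0.26, adjusted p = 0.167 with edgeR).

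**Figure D1:**
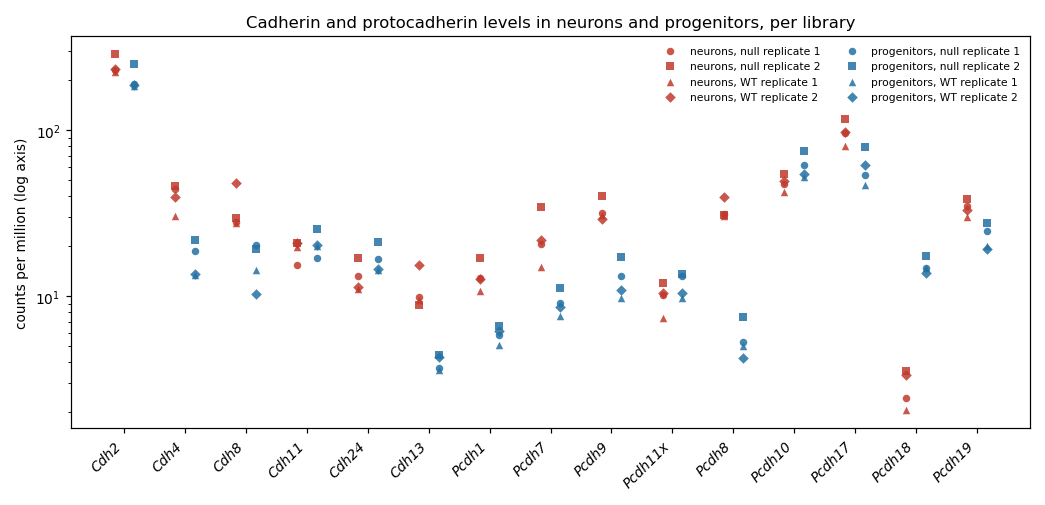
Level of the 15 genes in neurons (red) and progenitors (blue) of each of the 4 libraries, in CPM on a log axis, with 1 symbol for each library. Pcdh8 and Pcdh18 sit apart in opposite directions (log2 2.48 and -2.48), while Cdh11 and Pcdh11x overlap between the classes.

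The number of these genes seen in 1 cell was also higher in neurons. After every cell was thinned to 3000 UMIs, the mean number of the 35 genes with a UMI was 1.46, 1.62, 1.33 and 1.52 in neurons and 1.21, 1.41, 1.08 and 1.13 in progenitors. The difference was 0.273 ± 0.0784 genes a cell (SD, n = 4 libraries), in the same direction in all 4. Without thinning the order was the other way in all 4 libraries (2.15 to 3.19 in neurons against 2.46 to 3.79 in progenitors), and the median depth was 5495 to 8160 UMIs in neurons and 7930 to 11949 UMIs in progenitors. Cells with none of the 35 genes made up 17.0% to 23.9% of the thinned neurons and 23.2% to 31.5% of the thinned progenitors.

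The partners of these genes included members higher in either class. Of 15 catenins and junction partners, 14 were tested, 6 higher in neurons and 6 higher in progenitors, which is near the shares among all genes (40.7% and 39.7%). The alpha-catenins, which join the cadherin complex to actin, went in opposite directions. Ctnna1, the form of epithelia, was at 48.6, 56.2, 43.2 and 42.8 CPM in neurons and 138, 159, 127 and 121 CPM in progenitors (log2 -1.57, SE 0.04), and Nectin3, a protein of adherens junctions, was also higher in progenitors (log2 -1.33, SE 0.07). The largest differences toward neurons were Jup, plakoglobin (log2 2.02, SE 0.11), and Ctnnd2, the neural delta-catenin, at 81.3, 92.0, 66.2 and 76.2 CPM in neurons and 27.6, 34.0, 23.99 and 21.7 CPM in progenitors (log2 1.5, SE 0.05). Ctnna2, the neural alpha-catenin, was higher in neurons (log2 0.77, SE 0.04), and Ctnnb1, beta-catenin, in progenitors (log2 -0.55, SE 0.04). The delta-catenin Ctnnd1 (log2 0.15, SE 0.05) passed in the same direction as Ctnnd2. Ctnna2, Ctnnb1 and Ctnnd1 are named in addition to the list's largest differences and were chosen after their values were seen.

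All 9 genes of the WAVE complex list were tested, 5 higher in neurons and 3 higher in progenitors, 8 of 9 where 80.4% of all genes passed. Some related forms went opposite ways, with Cyfip2 (log2 1.02, SE 0.04) and Wasf1 (log2 0.60, SE 0.04) higher in neurons and Wasf2 (log2 -1.37, SE 0.07) and Cyfip1 (log2 -0.49, SE 0.04) higher in progenitors. Others did not, since Abi1 (log2 0.33, SE 0.04) and Abi2 (log2 0.38, SE 0.04) were both higher in neurons, and Wasf3 did not pass (log2 -0.14, adjusted p = 0.0693 with edgeR). Abi1, Abi2 and Wasf3 were added after their values were seen. Of 13 other genes of the cadherin superfamily 11 were tested, 8 higher in neurons and 3 higher in progenitors, again where 80.4% of all genes passed. The calsyntenin Clstn3 (log2 2.10, SE 0.10) and Dchs2 (log2 1.99, SE 0.20) were highest toward neurons, and the planar polarity gene Celsr1 (log2 -3.17, SE 0.12) and the atypical cadherin Fat1 (log2 -1.49, SE 0.05) toward progenitors. All genes named from these 3 lists except Wasf3 passed an adjusted p of 0.05 in the edgeR fit. Only the 35 genes were kept out of the clustering. Partner genes, and the other genes behind the share of 80.4%, could therefore take part in setting the classes compared.

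**Figure D2:**
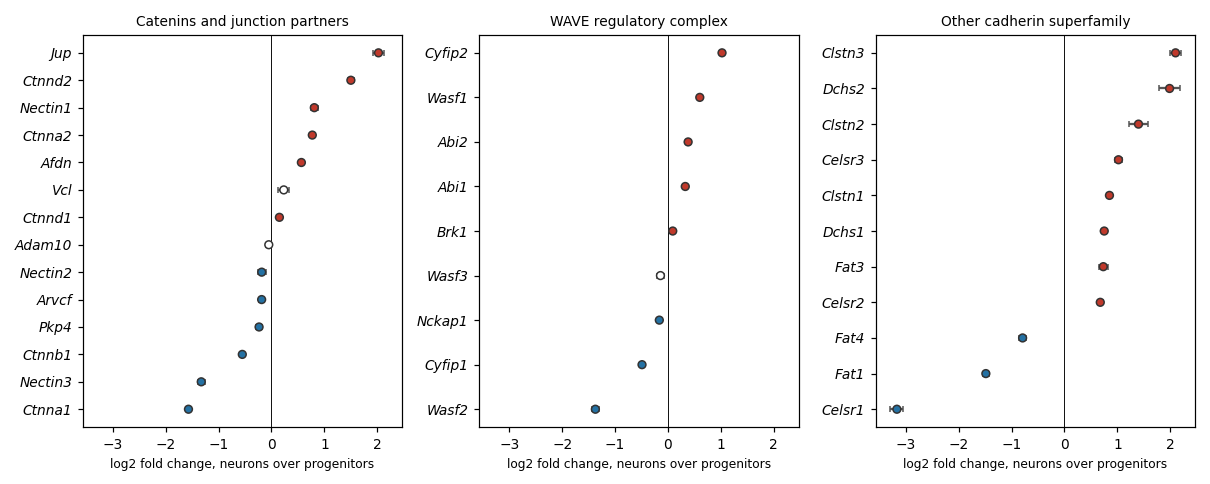
Log2 fold change of neurons over progenitors, with its standard error, for the partner genes of 3 lists in the edgeR fit. Red points passed an adjusted p of 0.05 toward neurons, blue ones toward progenitors and open ones did not pass. Ctnna1 (-1.57) and Ctnna2 (0.77), Cyfip1 (-0.49) and Cyfip2 (1.02), and Wasf2 (-1.37) and Wasf1 (0.60) lie on opposite sides of 0.

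Within the classes, cells were clustered again on genes that did not include the 35, giving 21 neuron and 17 progenitor clusters, 1 progenitor cluster being too small (40 cells) to describe. A cluster carries a cell type name, with the ending -like, only where its markers allowed one. The others are called by number and leading genes. In 4 neuron clusters, numbers 0, 7, 14 and 19 (1326, 486, 242 and 91 cells), the leading genes held more progenitor than neuron markers, and clusters 14 and 19 were led by genes of dividing cells such as Mki67. In progenitor cluster 8 (399 cells) neuron markers were ahead. Levels across clusters are a description without a test. Values in brackets are the lowest and the highest library, n = 4 unless stated.

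Cdh8 and Pcdh8 were highest in the same ventral telencephalic neuron-like cluster, number 11, which had 346 cells and was led by Kctd8, Cntnap5a, Itm2a, Megf10 and Tgfb2. Cdh8 stood there at 219 CPM (188 to 243) and Pcdh8 at 181 CPM (163 to 189), and for both genes it was the highest of the 21 clusters in all 4 libraries. The next cluster for Cdh8 was number 9, led by Cxcl14, Hcrtr2, Dab1, Hs3st4 and Gbx1, at 153 CPM (142 to 167), followed by cluster 8, led by Sst, Lypd6, Pde1a, Lypd6b and AI606473, at 90.9 CPM. The cortical interneuron precursor-like clusters 2 and 3, led by Rfx4 and Neb and by Id3 and Mef2c, held little Cdh8, 3.45 CPM together (1.77 to 6.09), but 29.6 CPM of Pcdh8 (24.8 to 34.8). Clusters 8, 9 and 11 together made up 11.9% of all neurons and held 61.2% of the neurons' Cdh8 UMIs and 44.9% of their Pcdh8 UMIs. Over the 21 clusters the mean log2(CPM + 1) values of Cdh8 and Pcdh8 had a Pearson r of 0.66, over clusters of the same 4 libraries. This r was not particular to the pair, since Cdh8 had 0.66 with Pcdh10 and 0.64 with Cdh13, and Pcdh8 had 0.65 with Pcdh19.

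Cdh13 was at 279 CPM in cluster 20, a ventral telencephalic neuron-like cluster of 56 cells led by Slc18a3, the vesicular acetylcholine transporter. Only the 2 WT libraries had enough of its cells for a value, 247 and 311 CPM. The next cluster, number 16, led by Six3os1 and Six3, stood at 65.9 CPM (58.2 to 79.8), and the cortical interneuron precursor-like clusters at 1.23 CPM. Cluster 20 also led for Cdh4 at 131 CPM, with 170 and 92.7 CPM in the WT libraries, a lead that did not exceed the spread in cluster 16 (51.8 to 153 CPM). CGE neuron-like cluster 6, led by Lgi1 and Htr3a, held 97.9 CPM of Cdh4 (73.6 to 122).

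Pcdh10 and Pcdh7 were the 2 most alike of the 15 genes over the neuron clusters (Pearson r = 0.89 over 21 clusters of the same libraries). Both were highest in LGE striatal-type neuron-like cluster 13, led by Npy1r, Arap2 and Rxrg, Pcdh10 at 157 CPM (131 to 182) and Pcdh7 at 148 CPM (121 to 188). That cluster was also the highest for Cdh2 in all 4 libraries, at 384 CPM (302 to 450). Clusters that overlapped with it included 16, 5 and 9 for Pcdh10. For Pcdh7 they included cluster 18, led by Snhg11 and Pfkp, where null replicate 2 alone stood at 305 CPM. Of the 21 neuron clusters, 15 lay wholly below the lowest library of cluster 13 for Pcdh10, 17 for Pcdh7 and 12 for Cdh2. The striatal-type clusters 5 and 13 pooled held 136 CPM of Pcdh10 (126 to 148) and the cortical interneuron precursor-like clusters 13.2 CPM (10.8 to 15.97).

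Over the 21 neuron clusters Pcdh17 had a Pearson r of 0.12 with Pcdh10 and 0.27 with Pcdh7. In the pooled striatal-type clusters 5 and 13, which include the highest cluster of those 2 genes, Pcdh17 was low. It stood at 29.5 CPM (21.2 to 38.2) in the striatal-type neuron-like clusters and was highest at 363 CPM (332 to 398) in cluster 12, led by Neurod6, Neurod2, Hmx2, Eomes and Otp, followed by cluster 10, led by Nts, Csmd1, Peg10, Calb1 and Gbx2, at 265 CPM (189 to 362). Cluster 12 had 274 cells and 29 to 108 cells a library, and its leading genes include markers of pallial excitatory neurons, a list that was higher in null replicate 2. For Pcdh17 within that cluster null replicate 2 was the lowest of the 4 libraries, at 332 CPM.

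Pcdh9 was highest in cluster 18 at 80.2 CPM (51.6 to 141), which overlapped with cluster 11 at 74.2 CPM (57.4 to 91.2). It was at 66.1 CPM (47.9 to 86.6) in the ventral telencephalic neuron-like cells and at 37.1 CPM (32.8 to 41.9) in the cortical interneuron precursor-like cells, but at 5.45 CPM (2.94 to 7.53) in the striatal-type neuron-like cells. Cdh11 was highest in cluster 7, whose leading genes included C130073E24Rik, Cdh11, Nr2e1 and Sst, at 60.0 CPM (44.7 to 84.5), which did not differ beyond its spread from cluster 9 at 57.6 CPM (47.0 to 78.2). Pcdh19 was highest in cluster 11 at 86.8 CPM (68.3 to 113), overlapping with cluster 12 at 66.4 CPM. Pcdh1, Pcdh11x and Cdh24 had leads that overlapped with the next cluster, and Pcdh18 had a mean of at most 8.43 CPM in every neuron cluster.

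**Figure D3:**
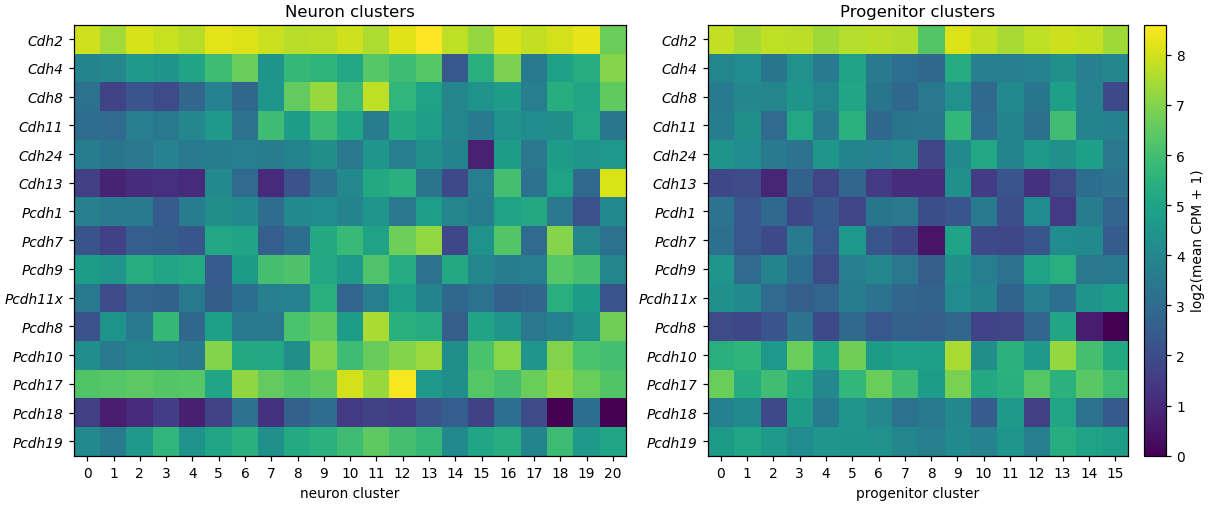
Mean level of the 15 genes over the libraries in each neuron and progenitor cluster of at least 50 cells, as log2(CPM + 1), with rows for genes and columns for clusters. Cdh8 and Pcdh8 are brightest in neuron cluster 11 (219 and 181 CPM), Pcdh7 and Pcdh10 in cluster 13 (148 and 157 CPM), Pcdh17 in cluster 12 (363 CPM) and Cdh13 in cluster 20 (279 CPM).

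Among progenitors, the radial glia-like clusters 3, 5, 9 and 13 stood apart from the basal progenitor-like clusters 4 and 15 in several genes. Pcdh10 was at 122 CPM (95.3 to 162) in radial glia-like cells and 33.7 CPM (26.4 to 37.6) in basal progenitor-like cells. Cdh11 was at 43.9 CPM (36.4 to 54.0) against 10.9 CPM (5.67 to 17.5), and Cdh6 at 16.5 CPM (11.1 to 25.3) against 1.4 CPM (0.872 to 2.22). Pcdh7 was at 19.7 CPM (15.6 to 26.8) against 4.05 CPM (2.18 to 6.15), and Pcdh18 at 22.8 CPM (19.8 to 28.1) against 10.1 CPM (7.03 to 16.3). These 5 genes were named because they differed, and in none of them did the ranges overlap. How many of all genes separate these cells was not computed. Cdh7 went the other way, at 4.38 CPM (2.52 to 5.91) in radial glia-like and 24.1 CPM (19.2 to 28.1) in basal progenitor-like cells, also without overlap. So did Cdh24, at 12.9 CPM (10.7 to 14.4) against 20.8 CPM (13.3 to 26.7), with overlapping ranges. The genes leading basal progenitor-like cluster 4 include the globins Hbb-bt and Hbb-bs, and the part of erythroid RNA in these values was not tested. Within the radial glia-like cells, cluster 9, led by Sulf1, Bcan and Rlbp1, had the highest Pcdh10 at 181 CPM (141 to 241), overlapping with cluster 13, led by Dio3, Ptx3 and Hhip, at 149 CPM (117 to 220). Cluster 13 was the highest progenitor cluster for Pcdh8 in all 4 libraries, at 32.5 CPM (19.2 to 45.6).

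The second comparison asked whether loss of St18 changed these genes. In neurons 26 of the 35 were tested and 0 passed an adjusted p of 0.05 in the edgeR fit of 2 null against 2 WT libraries, where 0.081% of all 13580 genes passed. The lowest adjusted p among them was 0.234. At an unadjusted p under 0.05 there were 5, where 17.3% of all genes were. DESeq2 gave an adjusted p for only 2 of the 26, and neither passed. Those 5 were Cdh8 (log2 of null over WT -0.54, SE 0.21), Cdh13 (-0.55, SE 0.22), Pcdh8 (-0.32, SE 0.14), Cdh9 (-1.09, SE 0.42, at or below 1.02 CPM throughout) and Cdh10 (0.41, SE 0.18, where null had 12.4 and 10.4 CPM, WT 7.74 and 7.83 CPM). For Cdh8 the 2 null libraries, 28.0 and 29.5 CPM, lay just above WT replicate 1, 27.7 CPM, and below WT replicate 2, 47.8 CPM. For Cdh13 the same library stood out, with 15.4 CPM in WT replicate 2 and 8.82 to 9.81 CPM in the other 3. In the ventral telencephalic neuron-like cells, where Cdh13 was highest, both WT libraries lay above both null libraries, 94.1 and 101 CPM against 39.2 and 36.7 CPM. These cells were picked for their Cdh13 level, and how many of all genes separate the genotypes in them was not computed. Cluster 20, the richest in Cdh13, is part of these cells and held 0.271% and 0.187% of the null neurons and 0.615% and 1.26% of the WT neurons. Without WT replicate 1 both genes passed (Cdh8 log2 -0.87, adjusted p = 0.0114, and Cdh13 log2 -0.85, adjusted p = 0.0356, with edgeR), 2 of 26 where 0.871% of all genes passed in that fit, and without WT replicate 2 neither did (log2 -0.12 and -0.18). Without null replicate 1, 1 gene passed, Pcdh7, which in neurons stood at 34.3 CPM in null replicate 2 and 15.1 to 21.8 CPM in the others. In that fit 20.5% of all genes passed.

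In progenitors 21 of the 35 were tested and 0 passed in the edgeR fit, where 0.0147% of all 13599 genes passed. At an unadjusted p under 0.05 there were 4, all higher in null, where 17.1% of all genes were at that p and 7.4% higher in null. DESeq2 gave an adjusted p for only 3 of the 21, and none of these passed. The 4 were Cdh4 (log2 0.39, SE 0.11, where null had 18.8 and 21.8 CPM, WT 13.5 and 13.6 CPM), Cdh6 (0.47, SE 0.19), Cdh8 (0.48, SE 0.17) and Pcdh9 (0.35, SE 0.14). Without 1 library each, Cdh4 ran from 0.35 to 0.43 and Cdh6 from 0.30 to 0.63. Cdh8 ran from 0.27 to 0.76 and Pcdh9 from 0.23 to 0.48. In CPM the null libraries of 11 of the 15 genes lay above both WT libraries in progenitors, and none below. Among all genes tested 48.2% lay above in that way and 11.1% below. These counts are on the CPM scale, on which the median log2 fold change of all genes was 0.19 toward null in progenitors and 0.14 in neurons, against -0.003 in both under the TMM scaling of the fit. Leaving out null replicate 1 gave 5 calls among 22 tested members, where 31.2% of all genes passed, and leaving out null replicate 2 gave 3 among 21, where 12.5% of all genes passed. These shares are near or below the background. Leaving out either WT library gave 0 calls with edgeR, where at most 0.282% of all genes passed.

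The X-linked genes were looked at in male cells as well, because the sexes were unequal between the pools. Pcdh19 had a log2 fold change of null over WT of 0.07 in all neurons and -0.14 in male neurons, and of 0.22 and 0.27 in progenitors. Pcdh11x had 0.16 and 0.31 in neurons and 0.22 and 0.41 in progenitors. None of these passed (lowest adjusted p = 0.257, edgeR).

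**Figure D4:**
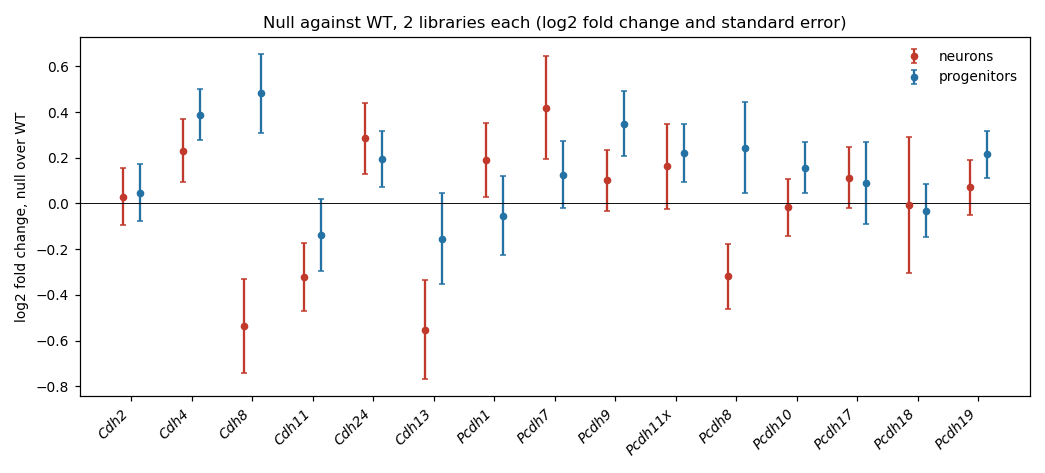
Log2 fold change of null over WT for the 15 genes in neurons (red) and progenitors (blue), with the standard error of the edgeR fit of 2 against 2 libraries. No gene passed an adjusted p of 0.05 in either class, and Cdh8 lies at -0.54 in neurons and 0.48 in progenitors.

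The third comparison asked whether the genotype difference itself differed between neurons and progenitors. Of 26 genes tested, 1 passed, Cdh8, whose fitted null over WT value was of opposite sign in the classes, -0.54 in neurons and 0.48 in progenitors (difference of the log2 fold changes -0.94, SE 0.18, adjusted p = 0.00208, edgeR interaction term), where 0.863% of all 14372 genes passed. In progenitors the null libraries stood at 20.4 and 19.1 CPM and the WT libraries at 14.4 and 10.3 CPM, without overlap, while in neurons they overlapped. Without WT replicate 2 the term was -0.34 (adjusted p = 0.605), without the other libraries it lay between -0.90 and -1.60 and passed, and in male cells it was -1.32 (adjusted p = 0.0844). Pcdh8 had a term of -0.50 (SE 0.18, adjusted p = 0.279) and Cdh10 one of 0.48 (SE 0.21, adjusted p = 0.474). Without 1 library each, these terms ran from -0.82 to -0.23 for Pcdh8 and from 0.15 to 0.64 for Cdh10. Their null over WT values in neurons then ran from -0.48 to -0.15 and from 0.23 to 0.58.

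The share of Cdh8-rich neurons was not the same in all libraries. Clusters 8, 9 and 11 were grouped after their Cdh8 levels were seen. Together they held 9.67% and 8.62% of the neurons of the null libraries. In the WT libraries they held 11.4% and 18.8%, without overlap between the genotypes. For cluster 9 alone the shares were 2.80% and 2.11% in the null libraries, 4.39% and 7.04% in the WT libraries. For cluster 11, the highest in Cdh8, they overlapped, with 2.77% and 3.51% in the null libraries and 2.38% and 5.46% in the WT libraries. Within cluster 8 Cdh8 stood at 96.2, 102, 69.0 and 96.4 CPM, within cluster 9 at 151, 142, 152 and 167 CPM, and within cluster 11 at 188, 241, 206 and 243 CPM. Larger gaps in share lay among neurons with little Cdh8. Cluster 1, led by Npy, Efcab6 and S100a10 and with 2.40 CPM of Cdh8, held 6.36% and 1.12% of the null neurons and 23.6% and 18.8% of the WT neurons. Cluster 2 held 15.7% and 19.3% of the null and 6.93% and 5.15% of the WT neurons, and cluster 3 held 10.4% and 13.3% of the null and 6.27% and 3.88% of the WT neurons, both cortical interneuron precursor-like. None of these shares overlapped between the genotypes, nor did those of clusters 0, 4, 5, 8, 9, 16, 18, 19 and 20. Lack of overlap was therefore common among the 21 neuron clusters. Within the Cdh8-rich clusters, the null libraries lay just below the WT libraries in cluster 9 and overlapped with them in clusters 8 and 11. With equal numbers of cells of each cluster drawn from every library, which evens out the shares of all clusters and leaves 1302 neurons a library (2135 to 3319 before), the log2 fold change of Cdh8 in neurons was -0.0017 (SE 0.14, against -0.54), that of Pcdh8 -0.015 (against -0.32) and that of Cdh13 -0.34 (against -0.55). In progenitors the same draw left Cdh8 at 0.44 (SE 0.17), and the interaction term was then -0.40 (adjusted p = 0.274, edgeR). The cells were drawn at random a single time, and the SE does not cover the spread between draws. Cluster shares came from clustering without the 35 genes, and the difference in shares was not tested. The part of the shares in the genotype values of Cdh8, Pcdh8 and Cdh13 was not tested either. Over the alternatives that gave an adjusted p, the log2 fold change of Cdh13 in neurons ran from -0.85 to -0.046.

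**Figure D5:**
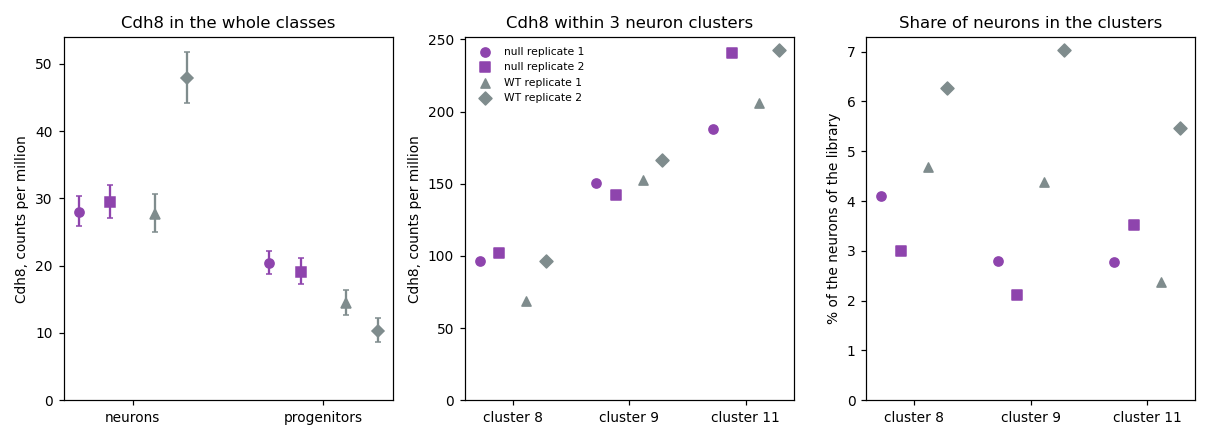
Left, Cdh8 in CPM in all neurons and all progenitors of each library, with exact 95% Poisson intervals that cover counting error only. Middle, Cdh8 within neuron clusters 8, 9 and 11 of each library. Right, share of each library's neurons in these clusters. WT replicate 2 is highest in all neurons (47.8 CPM) and has the highest shares (7.04% in cluster 9). Within cluster 9 the 4 libraries lie between 142 and 167 CPM, and within cluster 11 between 188 and 243 CPM. Within cluster 8 WT replicate 1 is lowest. The difference in shares was not tested.

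In the partner lists 0 of 14 catenins and junction partners, 0 of 9 WAVE complex genes and 0 of 11 other cadherin superfamily genes passed an adjusted p of 0.05 for null against WT in neurons or in progenitors, or for the interaction, in the edgeR fits. At an unadjusted p under 0.05 there were 1, 0 and 3 of them in neurons and 3, 0 and 3 in progenitors, where 17.3% and 17.1% of all genes were.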

How the data were processed

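The deposited values were UMI counts per gene and barcode that the authors made with Cell Ranger on GRCm38 (version 5.0.1 per the processing notes, 4 per the file headers), not normalized. Cells were filtered as given above and by at least 200 genes. Doublets were taken as the cells with the highest Scrublet scores (scanpy 1.11.5), 0.8% per 1000 cells, since its own threshold called under 0.1%. Cells were clustered in Seurat 5.3.0, after the study's methods, with 2000 variable genes, 49 components and resolution 1.4, the difference of the cell cycle phase scores regressed out and the 35 genes removed. Clusters were classed by marker genes. Neurons and progenitors were then clustered separately. The counts of each class were added up within each library and tested two-sided with edgeR 4.0.16 (TMM, filterByExpr, quasi-likelihood, Benjamini-Hochberg over all tested genes) in R 4.3.3. DESeq2 1.42.0, other scalings, filters and cell limits, and leaving out each library were the alternatives. The tests were tried on simulated counts first. Levels are CPM of the summed counts. Gene positions came from GENCODE M21 and promoters from RefSeq.

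The labels give no replicate numbers, and the replicates were numbered in accession order. The 2 null libraries differed more from each other (chi-square per degree of freedom 26.8 in neurons) than the 2 WT libraries (3.93). How many embryos went into a pool is not stated. The p-values of null against WT measure the spread between these pools. The fits of neurons against progenitors and of the interaction had the library as a block. Their p-values measure how far the difference between the classes varied from library to library. Genes were described singly at a mean of 10 CPM or more in neurons or progenitors. Rarer members are named where they passed a test or an unadjusted p of 0.05. Others are named to complete their group or for their level in cells left out of the comparisons. Partner genes are named by the 2 largest changes in each direction, with the additions given above. The members and lists were chosen with earlier results of these data known. Microglia, erythroid and oligodendrocyte precursor clusters were left out of the comparisons. Counting of overlapping and antisense genes by strand is not given in the sources used here. In GENCODE M21 another gene overlaps 13 of the 15 genes described singly on the opposite strand and 6 on the same strand, and their UMIs could not be told apart here.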

Additional observations from a re-analysis of the deposited data

Results flagged for a closer look

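The Cdh8 interaction term (log2 -0.94, adjusted p = 0.00208, edgeR) was flagged because it alone passed among the 26 genes tested. It did not pass in male cells or with equal cells per cluster, and it was -0.34 without WT replicate 2. These values are given above.

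The remaining results come from cells outside the comparisons, where a gene's level had at least 10 UMIs and a lower 95% Poisson bound (counting error only) above its highest neuron or progenitor library. In the 34 oligodendrocyte precursor-like cells, pooled over libraries, Pcdh17 stood at 278 CPM, Pcdh10 at 219 CPM, Pcdh15 at 99.8 CPM, Pcdh7 at 90.1 CPM, Pcdh11x at 87.6 CPM, Cdh4 at 77.9 CPM, Cdh13 at 53.6 CPM, Cdh10 at 38.9 CPM and Cdh6 at 36.5 CPM. Pcdh15 had its highest neuron library at 5.63 CPM, and 17 of the 34 cells had a UMI of it. In the 98 cells of the microglial cluster Cdh5, VE-cadherin of endothelial junctions, stood at 118 CPM, Pcdh18 at 55.2 CPM, Cdh11 at 37.6 CPM, Pcdh1 at 32.0 CPM and Pcdh12 at 20.8 CPM. These values rest on few cells, with a UMI in 15.3% of the 98 for Cdh11, 14.3% for Pcdh18, 14.3% for Pcdh1 and 9.18% for Pcdh12, and which of the 2 kinds of cell described next carried them was not tested. The Cdh5 UMIs came from 15 of the 98 cells, which had a median of 6 of the 6 endothelial markers and 0 of the 6 microglial ones, whereas the other 83 had a median of 0 endothelial and 6 microglial markers.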

How the results depend on the processing

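All neuron against progenitor directions of the 22 tested genes held in every alternative, and the number of calls ran from 17 to 25 (19 to 23 of 22 to 25 tested without 1 library each, where 76.7% to 78.6% of all genes passed). Cdh11, Cdh2 and Pcdh11x lost their calls without the library block (17 calls), and Cdh11 also with DESeq2, library totals, 5000 UMIs or without null replicate 2. Pcdh20 passed without WT replicate 2. No paired analysis was possible because the labels give the null and WT libraries no replicate numbers that could pair them. Thinning to 5000 UMIs gave 0.372 more genes per cell in neurons. At resolution 0.8, 10 of 15 genes kept the cells of their highest neuron cluster together in the highest cluster, and Cdh4, Cdh24, Pcdh1, Pcdh11x and Pcdh19 did not.

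For null against WT in neurons, calls among the 35 genes were 0 in every alternative except the fits without 1 library each, which gave 0 to 2. DESeq2 left all but 2 of the 26 without an adjusted p, and all but 3 of 21 in progenitors, so its 0 calls say little. Over all genes the 11 calls became 63 to 2810 without 1 library each, 326 with DESeq2, 355 with library totals, 217 without a filter, 45 at 5000 UMIs, 66 at 5% mitochondrial share, 86 with more doublets left out, 76 without clusters led by markers of the other class, 2 in male cells and 3 with equal cells per cluster. In progenitors the 35 genes gave 1 call without a filter (Cdh8) and 0 to 5 without 1 library each. Over all genes the 2 calls became 30 to 4314 without 1 library each, 317 with DESeq2, 101 with library totals, 932 without a filter, 4 with RLE factors, 4 at 5000 UMIs, 7 with more doublets left out, 0 in male cells and 60 with equal cells per cluster. The counts without 1 library each rest on a lone library in 1 arm, assumed to vary like the pair in the other.

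For the interaction, the single call became 2 without a filter, 0 in male cells, 0 with equal cells per cluster and 0 to 2 without 1 library each. Over all genes the 124 calls became 176 without a filter, 28 in male cells, 71 with equal cells per cluster, 81 without clusters led by markers of the other class and 80 to 199 without 1 library each. The second gene, where there were 2, was Pcdh8. With equal cells per cluster its term was 0.028, against -0.50. The causes of these changes were not tested. In neurons the sign for Pcdh11x turned at 5000 UMIs (-0.029) and over 1 library left out each (-0.054 to 0.40), and that for Pcdh19 at 5000 UMIs (-0.017), in male cells (-0.14) and with equal cells per cluster (-0.032). Of the members above an unadjusted p of 0.05, the X-linked ones aside for neurons and progenitors, the sign differed in at least 1 alternative for 13 of 19 in neurons, 10 of 15 in progenitors and 12 of 23 in the interaction. The alternatives for male cells, equal cells and clusters led by the other class in the interaction, and the last of these in the other comparisons, were chosen after seeing the data. Counts under 10 CPM limit what can be seen of the 20 rarer genes.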
